A study of Mus musculus with 24 samples.

Results

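The genes described here encode enzymes, a transporter and a regulator through which the liver makes, takes up and releases glucose. They are Pck1, G6pc, Fbp1, Pcx, Tat, Pklr, Slc2a2, Ppargc1a and Sds, 9 of the mouse genes read by Affymetrix arrays on which 18193 genes had a probe set of their own. A probe set is a group of short oligonucleotides that reads 1 transcript, and each gene was represented by the probe set, mapped by the platform annotation to that gene only, with the highest mean signal in liver. 8 of the 9 genes had such a probe set, and Sds had none. By the RefSeq gene table of GRCm38.p6, Pck1 lies on chromosome 2 from 173153073 to 173159274, G6pc on 11 from 101367716 to 101377903, Fbp1 on 13 from 62864753 to 62888298, Pcx on 19 from 4510472 to 4621752, Tat on 8 from 109986078 to 109999804, Pklr on 3 from 89136122 to 89146815, Slc2a2 on 3 from 28697903 to 28728361 and Ppargc1a on 5 from 51454249 to 52115853. All 8 passed the filter on low signals in liver, and 4 of them (Pck1, Fbp1, Pcx and Ppargc1a) passed it in adipose tissue.

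Gluconeogenesis is the synthesis of glucose from lactate, glycerol and amino acids, and the liver relies on it between meals. Pyruvate carboxylase (Pcx) and phosphoenolpyruvate carboxykinase (Pck1) carry pyruvate past the step that pyruvate kinase (Pklr) drives in the opposite direction, and fructose bisphosphatase (Fbp1) and glucose-6-phosphatase (G6pc) complete the path. Glucagon and glucocorticoids raise several of these transcripts in fasting and insulin lowers them after a meal, while glucose and insulin raise Pklr.

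The study asked whether GPR120, a cell surface receptor for long-chain fatty acids encoded by Ffar4, has a role in obesity brought on by a fatty diet. Knockout (KO) mice without GPR120 and wild-type (WT) mice, all of mixed 129/Sv and C57BL/6 background, were kept on a normal diet (ND) or a high-fat diet (HFD), and epididymal adipose tissue and liver were taken from each animal. The 12 mice gave 24 arrays in 8 groups of 3. The composition and length of the diets, the age of the mice and their feeding state and the hour at the time of sampling are not given in the sources used here.

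Array medians lay between 13.4 and 25.7 intensity units. Ffar4, the deleted gene, read 26.7 ± 3.68 units (SD, n = 3) in fat of KO mice against 132 ± 37.4 in that of WT mice when both ate HFD, and 34.5 ± 1.06 against 64.6 ± 8.07 when both ate ND. In liver its probe set read 0.55 to 36.8 units on all arrays, under the filter level as a mean, and was higher on the KO arrays than on the WT arrays of each diet, so it gave no check of the labels there. Albumin (Alb), which hepatocytes secrete, read at least 9314 units on every liver array, and the fat cell hormone Adipoq read 1.29 to 27.4 units there against 3800 to 7424 on the adipose arrays. The adipose arrays of mice on ND carried RNA of the neighbouring epididymis: its secreted protein Lcn5 read 6230 to 10683 units on those 6 arrays and 0.30 to 7.83 on the 6 HFD arrays. The summed signal of 13 epididymis and testis markers was 35.3 to 6377 units on the KO arrays on HFD, highest in mouse 427. It was 179 to 311 on the WT arrays on HFD.

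Differences between groups are log2 differences ± SE from limma, an adjusted p is adjusted over all genes tested in the tissue, and a gene was called changed when that value lay under 0.05. The levels of different genes were not compared, since the scales of their probe sets differ. The 4 comparisons within a tissue share groups with each other, so their results are not independent.

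On the fatty diet, WT liver held less of the transcripts of Tat, Ppargc1a, G6pc and Pck1 and more of the glucose transporter Slc2a2. Those 5 of the 8 genes passed the test, against 12.5% of all 11121 genes tested in liver. 4 were lower and 1 higher, where 6.04% and 6.49% of all genes were. KO liver showed lower Pck1, Tat and Ppargc1a and higher Pklr, 4 of 8 genes against 16.4% of all genes, with 7.3% lower and 9.11% higher. The median log2 difference of the 8 genes was -0.41 in WT and -0.33 in KO mice, beside -0.0025 and 0.019 for all genes. Groups did not overlap for 5 of the 8 genes in WT and for 6 in KO mice, where 28.9% and 38.6% of all genes were apart.

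**Figure D1:**
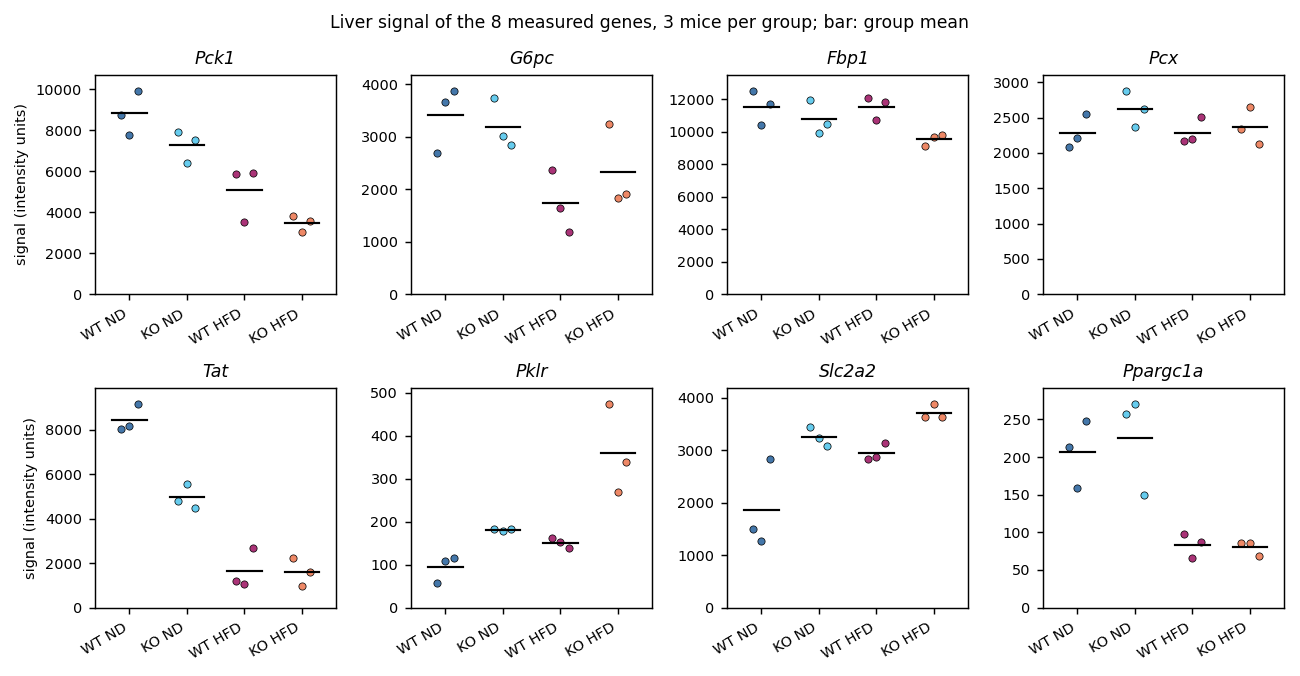
Liver signal in intensity units of the 8 measured genes in the 4 groups of genotype and diet, with 1 point per mouse, 3 mice per group, and a bar at the group mean. The axes start at 0 and differ between genes. Tat read 992 to 2675 units on the HFD arrays and 4499 to 9155 on the ND arrays, and Pklr was highest in KO mice on HFD (270 to 473 units).

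The bases before the start sites of the 4 genes that were lower on HFD in WT liver are shown because cyclic AMP, insulin and glucocorticoids are known to act through promoters of this group. The sequences are those of RefSeq for GRCm38.p6, 250 bases each, 5' to 3' on the strand of the gene. They lie at chr2:173152823-173153072 on the plus strand for Pck1, chr11:101367466-101367715 on the plus strand for G6pc, chr5:51567726-51567975 on the minus strand for Ppargc1a and chr8:109990186-109990435 on the plus strand for Tat. The Ppargc1a and Tat sites lie inside the genes as the RefSeq gene table bounds them. Capitals mark any match, on either strand, to 11 short motifs.
Pck1: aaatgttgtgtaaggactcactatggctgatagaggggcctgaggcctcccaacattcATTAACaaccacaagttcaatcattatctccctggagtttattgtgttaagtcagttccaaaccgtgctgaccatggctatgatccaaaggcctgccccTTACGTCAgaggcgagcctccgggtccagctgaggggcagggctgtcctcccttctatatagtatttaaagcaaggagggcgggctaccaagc
G6pc: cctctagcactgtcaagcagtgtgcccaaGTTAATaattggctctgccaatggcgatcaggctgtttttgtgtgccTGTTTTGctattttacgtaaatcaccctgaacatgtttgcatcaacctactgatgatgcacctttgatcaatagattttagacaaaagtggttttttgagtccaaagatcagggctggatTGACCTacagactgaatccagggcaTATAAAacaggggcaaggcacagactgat
Ppargc1a: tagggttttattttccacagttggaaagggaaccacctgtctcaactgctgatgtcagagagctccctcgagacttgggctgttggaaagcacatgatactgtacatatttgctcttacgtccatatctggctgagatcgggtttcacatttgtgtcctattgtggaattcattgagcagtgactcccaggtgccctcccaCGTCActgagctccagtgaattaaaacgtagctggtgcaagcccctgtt
Tat: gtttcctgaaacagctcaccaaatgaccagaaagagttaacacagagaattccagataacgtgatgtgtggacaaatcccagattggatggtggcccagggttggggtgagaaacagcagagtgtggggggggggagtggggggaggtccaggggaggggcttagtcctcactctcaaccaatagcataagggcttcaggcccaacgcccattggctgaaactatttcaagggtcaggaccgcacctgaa

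The Pck1 sequence held the cyclic AMP response element TTACGTCA from base -93, with base -1 next to the start, a motif present in 0.499% of 32851 windows that ran from 250 bases before to 50 after a start site. The core site TGACG, which overlaps that element in Pck1 from base -90, was found in Ppargc1a from base -49 and in 20.8% of windows. G6pc held the insulin response core TGTTTTG from base -174 (6.28% of windows), the nuclear receptor core site AGGTCA from base -54 (16.3%) and the TATA box TATAAA from base -29 (13.6%). The HNF1 core GTTAAT stood in G6pc from base -221 and in Pck1 from base -192 (7.10%). The Tat sequence matched none of the 11 motifs. The full element TGACGTCA (1.79% of windows), the forkhead site TGTTTAC (3.65%), the glucocorticoid receptor core site AGAACA (19.0%) and the C/EBP palindrome TTGCGCAA (0.183%) were in 0 of the 10 windows of these genes.

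Among the other windows, 1 of Pcx held the E-box CACGTG from base -248 (7.15% of windows), 1 of Pklr the TATA box from base -31, and windows of Pcx, Pklr and Slc2a2 the nuclear receptor core site. These matches describe letters in a window and say nothing of binding.

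Pck1 encodes the cytosolic carboxykinase that makes phosphoenolpyruvate and is often taken as the rate-setting step of gluconeogenesis. Its probe set read 8763, 7791 and 9923 units in the 3 WT mice on ND and 5845, 3508 and 5915 in the 3 WT mice on HFD. The KO mice read 7926, 6412 and 7545 on ND and 3799, 3054 and 3562 on HFD. Every HFD array lay below every ND array of either genotype. The diet lowered Pck1 by 1.77-fold in WT liver (log2 -0.83 ± 0.18, adjusted p = 0.0108) and by 2.10-fold in KO liver (log2 -1.07, adjusted p = 0.00200), and the difference between the genotypes in this diet effect did not pass (interaction log2 -0.24 ± 0.25, adjusted p = 0.709).

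Ordered by group mean, Pck1 ran from WT on ND (8826 ± 1067 units) over KO on ND (7294 ± 788) and WT on HFD (5089 ± 1370) to KO on HFD (3471 ± 381). The genotypes overlapped on each diet. On HFD the log2 difference of KO from WT was -0.52 ± 0.18 and did not pass (adjusted p = 0.104), and mouse 547 set this outcome: without that array, the lowest of the WT group, the value was -0.77 with an adjusted p of 0.0104.

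A second probe set of Pck1 recorded a much larger difference between the diets than the chosen set. In WT liver it read 1568, 692 and 1295 units on ND and 121, 50.3 and 187 on HFD, and in KO liver 1171, 1611 and 1134 on ND and 105, 65.2 and 79.2 on HFD. The groups were far apart in both genotypes, with log2 differences of -3.42 ± 0.40 (adjusted p = 0.000299) in WT and -3.98 (adjusted p = 8.21e-05) in KO liver, or 10.7-fold and 15.8-fold. Both of these probe sets were lower on HFD, but the size of the change depended on which was read. The remaining set read 4.18 to 20.8 units in liver, below the filter, and its log2 differences ran the other way without a call (0.30 in WT and 1.24 in KO liver, adjusted p = 0.717 and 0.0765).

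RNA integrity values moved with the diets in liver. The ratios for Actb and Gapdh were higher on HFD in both genotypes, and the ratio for Pcx was not. The log2 ratio of the 3' to the 5' control probe sets of Actb, which grows as transcripts are copied less completely, was 1.11 to 1.25 in WT and 1.24 to 1.34 in KO liver on ND, and 1.99 to 2.09 and 1.69 to 1.71 on HFD. The same ratio for Gapdh was -0.40 to -0.27 on the ND liver arrays and -0.11 to 0.061 on the HFD arrays. For the Pcx control sets it was lower on HFD in KO liver, at 4.53 to 4.75 against 5.32 to 5.81 on ND. In WT liver the Pcx ranges of the diets overlapped. The part of these ratios in the differences between diets was not tested.

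**Figure D2:**
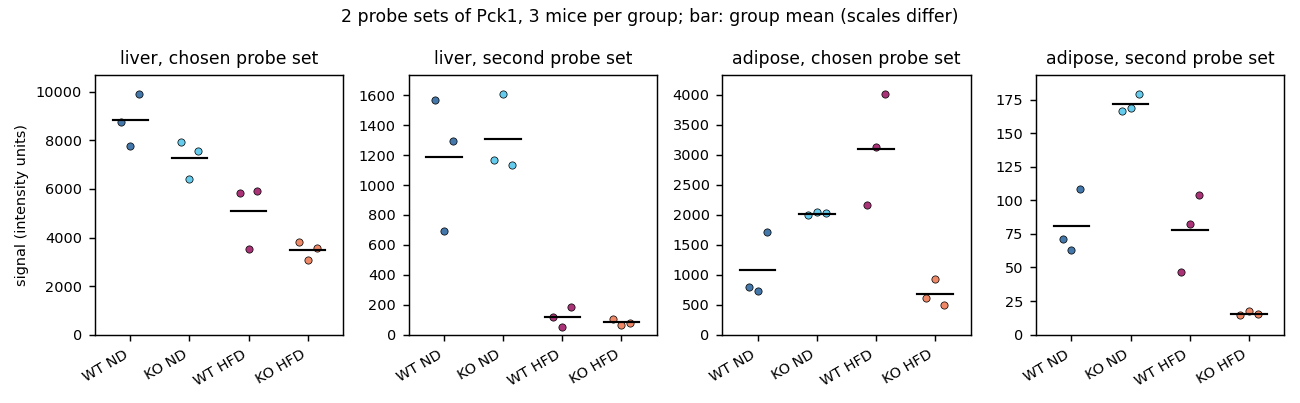
Signal in intensity units of 2 probe sets of Pck1 in liver and adipose tissue, with 1 point per mouse, 3 mice per group, and a bar at the group mean. The vertical scales differ between panels. In liver both sets were lower on HFD; in adipose tissue of WT mice the chosen set was higher on HFD while the second set had group means of 80.8 units on ND and 77.7 on HFD.

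G6pc encodes the phosphatase that frees glucose for release into the blood, the last step of both gluconeogenesis and glycogen breakdown. It read 2684, 3660 and 3872 units in WT liver on ND and 2362, 1633 and 1191 on HFD, and the groups did not overlap. KO liver read 3726, 3010 and 2841 on ND and 3244, 1837 and 1913 on HFD, where mouse 427 lay among the ND arrays. The fall on HFD was 2.02-fold in WT mice (log2 -1.02 ± 0.25, adjusted p = 0.0209), and the KO difference of -0.49 did not pass (adjusted p = 0.204). The interaction did not pass either (log2 0.52 ± 0.36, adjusted p = 0.526), so the diet effects were not shown to differ. The WT call was lost without any 1 of mice 547, 560, 687 or 690 (adjusted p = 0.0583 to 0.0676).

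The chosen probe sets of Fbp1 and Pcx did not pass in any liver comparison. Fbp1, which removes a phosphate from fructose-1,6-bisphosphate, read 12517, 10418 and 11718 units in WT mice on ND and 12063, 10693 and 11844 on HFD, a log2 difference of -5.4e-05 ± 0.10 with no call. KO mice read 11951, 9910 and 10494 on ND and 9111, 9676 and 9816 on HFD. All 3 KO arrays on HFD lay below every other liver array, but neither the difference from KO on ND (log2 -0.17, adjusted p = 0.259) nor that from WT on HFD (log2 -0.27 ± 0.10, adjusted p = 0.122) passed, and with quantile normalization both turned positive (0.038 and 0.023).

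Pcx, the mitochondrial enzyme that turns pyruvate into oxaloacetate, read 2080 to 2550 units in WT on ND, 2167 to 2505 in WT on HFD, 2372 to 2879 in KO on ND and 2130 to 2649 in KO on HFD. All 4 groups overlapped, with log2 differences for diet of 0.0054 ± 0.12 in WT and -0.15 in KO mice (adjusted p = 0.985 and 0.419). The array also carries control probe sets along the Pcx transcript, and they did not all read alike. The set labelled MB was lower on HFD in both genotypes (log2 -1.66 in each, adjusted p = 0.000192 in WT and 0.000111 in KO), the set labelled MA was higher on HFD in WT liver (log2 1.69, adjusted p = 0.00880), the same set was higher in KO than in WT liver on ND (log2 1.52, adjusted p = 0.0294), and the set at the 3' end differed by -0.058 in WT and -0.19 in KO mice without a call.

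Tat encodes tyrosine aminotransferase, a liver enzyme of amino acid breakdown and a classic target of glucocorticoids. Its signal in WT liver was 8022, 8165 and 9155 units on ND and 1197, 1055 and 2675 on HFD. KO liver read 4813, 5558 and 4499 on ND and 2234, 992 and 1604 on HFD, so that the diets were apart in both genotypes. Tat fell by 2.49 ± 0.31 on the log2 scale in WT liver (5.62-fold, adjusted p = 0.000501) and by 1.69 in KO liver (3.23-fold, adjusted p = 0.00335), the largest liver diet effects among the 8 chosen probe sets. The KO arrays on ND all lay below the WT arrays on ND, by -0.77 ± 0.31 on the log2 scale without a call (adjusted p = 0.177). That difference was called when the arrays of the ND groups were fitted alone (adjusted p = 0.00960), and the interaction was not (log2 0.80 ± 0.44, adjusted p = 0.419).

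Ppargc1a encodes PGC-1alpha, a coactivator that raises transcription of gluconeogenic and mitochondrial genes. It read 213, 158 and 248 units in WT liver on ND and 97.3, 65.9 and 86.8 on HFD, and 257, 270 and 150 in KO liver on ND and 86.4, 85.5 and 68.8 on HFD. The diets were apart in both genotypes and the genotypes overlapped on both diets. On HFD the transcript was 2.47-fold lower in WT (log2 -1.30 ± 0.24, adjusted p = 0.00425) and 2.74-fold lower in KO mice (log2 -1.45, adjusted p = 0.00169). All 4 other probe sets of the gene were also lower on HFD in both genotypes and passed the test, with log2 differences of -1.21 to -1.13 in WT and -2.17 to -0.96 in KO liver. Pck1, Tat and Ppargc1a kept their liver diet calls in both genotypes under all 12 other ways of processing (other scaling, filters or fits, or 1 array left out).

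Slc2a2 encodes GLUT2, the main glucose transporter of hepatocytes, which lets glucose pass both ways. It read 1495, 1274 and 2823 units in WT liver on ND and 2821, 2863 and 3136 on HFD. Mouse 690, at 2823 units on ND, just reached the HFD range, and the other 2 mice on ND lay well below it. KO liver read 3438, 3233 and 3082 on ND and 3624, 3876 and 3632 on HFD. Slc2a2 rose on HFD in WT liver by 1.68-fold (log2 0.75 ± 0.21, adjusted p = 0.0350), and the KO difference of 0.19 did not pass (adjusted p = 0.578), although its groups were apart.

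On ND the KO arrays lay above all WT arrays for Slc2a2, by 1.85-fold (log2 0.89 ± 0.21, adjusted p = 0.0304). Both Slc2a2 calls were lost in 8 of 12 alternatives each, at an adjusted p of up to 0.127 for diet in WT and 0.108 for genotype on ND. They depended on the WT mice on ND: without mouse 690 the log2 differences were 1.09 and 1.23 (adjusted p = 0.000192 and 5.41e-05), and without mouse 687 they were 0.52 and 0.66. The interaction was -0.55 ± 0.30 and did not pass (adjusted p = 0.401), but without mouse 690 it was -0.90 and did (adjusted p = 0.0164).

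Pklr encodes the pyruvate kinase of liver and red cells, the last enzyme of glycolysis. It read 58.1, 109 and 115 units in WT liver on ND, 162, 153 and 138 in WT on HFD, 182, 178 and 184 in KO on ND and 473, 270 and 339 in KO on HFD. The 4 groups followed each other without overlap in that order. Pklr was the gene with a genotype call on both diets: KO exceeded WT by 2.33-fold on HFD (log2 1.22 ± 0.24, adjusted p = 0.0104) and by 2.02-fold on ND (log2 1.01, adjusted p = 0.0314). Between the diets, KO liver held more of the transcript on HFD than on ND by log2 0.95 (adjusted p = 0.0176). The WT difference between diets of 0.74 did not pass (adjusted p = 0.0601). The WT difference was called in 3 of 12 alternatives, with quantile normalization (adjusted p = 0.0460), with probe sets averaged (adjusted p = 0.0371) and without mouse 690 (0.92, adjusted p = 0.0421), and without mouse 686 it was 0.43. The interaction was 0.21 ± 0.34 (adjusted p = 0.828).

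The Pklr calls held less firmly than their separation. Without mouse 427, the highest, the genotype difference on HFD had an adjusted p of 0.0530 and the KO diet difference of 0.74 one of 0.0741. Without mouse 718 or 719 the KO diet difference had an adjusted p between 0.05 and 0.0520. The genotype call on ND was lost in 7 of 12 alternatives, among them each left-out array of KO mice and mice 686 and 687 (adjusted p up to 0.0974). A second probe set of Pklr also passed for the genotype difference on HFD (log2 1.26 ± 0.31, adjusted p = 0.0303) but not the one on ND (0.30, adjusted p = 0.624), and in WT liver it differed by -0.051 between diets (adjusted p = 0.940). The remaining Pklr set read 2.47 to 40.6 units in liver and averaged below the filter. It was higher in KO than in WT liver on ND (2.33, adjusted p = 0.0308) and higher on HFD in WT liver (2.02, adjusted p = 0.0313), and the genotype difference on HFD (1.48, adjusted p = 0.126) and the KO diet difference (1.17, adjusted p = 0.168) did not pass.

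**Figure D3:**
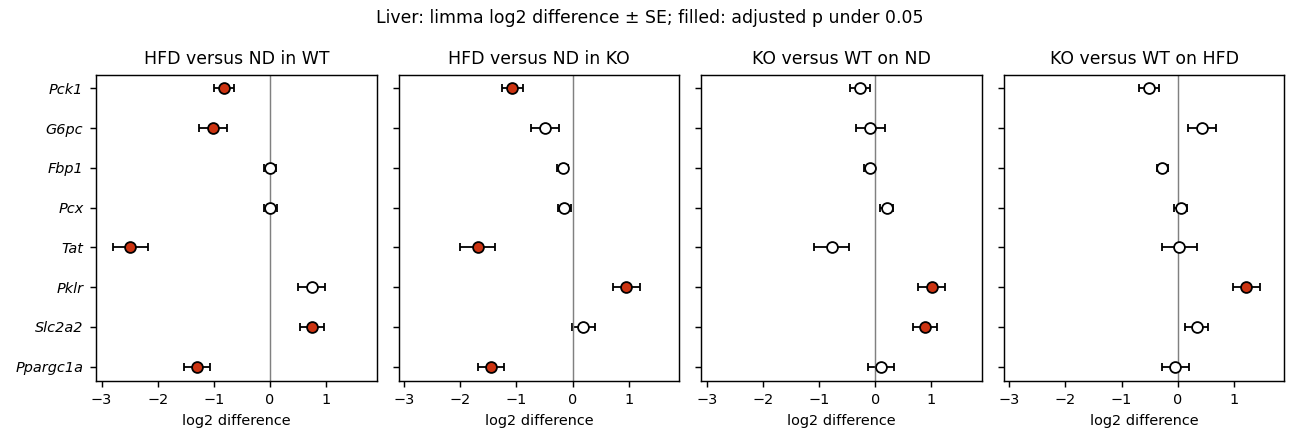
Log2 difference ± SE from limma of the 8 genes in the 4 liver comparisons; filled points passed at an adjusted p under 0.05. Points left of 0 are lower in the group named first. Tat, Ppargc1a and Pck1 are filled in both diet panels, and Pklr is filled in both genotype panels.

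Between the genotypes, 1 of the 8 genes passed on HFD (Pklr), against 6.67% of all genes, and 2 on ND (Pklr and Slc2a2), against 4.74%. All 3 of those calls were higher in KO liver, where 3.7% of all genes were higher and 2.98% lower on HFD, and 2.24% and 2.5% on ND. The median of the 8 log2 differences was 0.037 on HFD and 0.010 on ND, beside -0.028 and -0.050 for all genes. Groups were apart for 3 genes on HFD (Fbp1, Pklr and Slc2a2) and for 3 on ND (Tat, Pklr and Slc2a2), where 29.3% and 25.6% of all genes were. None of the 8 genes passed the limma test of the interaction, 0 had an unadjusted p under 0.05, and 0.998% of all genes passed.

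Markers of liver cell types moved with some of these comparisons. Of all genes, 12.5% were called for diet in WT and 16.4% in KO liver, and 6.67% for genotype on HFD. Of 18 hepatocyte markers tested, 0 passed between diets in WT and 3 were lower on HFD in KO liver, and 6 were lower in KO than in WT liver on HFD. Their summed signal was 204876 to 211936 units in WT on ND, 178139 to 198501 in WT on HFD, 164846 to 192322 in KO on ND and 142196 to 164806 in KO on HFD. Of 15 Kupffer cell and macrophage markers, 2 were higher on HFD in WT and 9 in KO liver, with sums of 4585 to 7025 and 4318 to 5463 units on ND and 6219 to 7569 and 7671 to 9805 on HFD. Of 8 fat cell markers tested in liver, 5 were higher in KO than in WT liver on HFD (Cidea, Plin4, Cidec, Fabp4 and Pparg, sums of 2765 to 4105 against 730 to 990 units), while Adipoq stayed at 1.29 to 18.9 in KO mice on HFD.

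Fewer cells of a type and less RNA per cell cannot be told apart in these bulk samples, and the part of any cell type in the differences of the 8 genes was not tested. Markers of periportal hepatocytes, the zone in which gluconeogenesis is strongest, were lower on HFD for 5 and higher for 1 of 14 in WT liver, and lower for 3 and higher for 1 in KO liver. Pericentral markers were higher for 2 and lower for 2 of 15 in WT, and higher for 4 and lower for 2 in KO liver. Between genotypes 4 periportal markers were lower and 1 higher in KO liver on each diet, 35.7% of the list. Of all genes 6.67% were called on HFD and 4.74% on ND. Pericentral markers were higher for 2 and lower for 1 in KO liver on HFD, and higher for 0 and lower for 1 on ND. Of 11 stellate cell and matrix genes, 1 was higher and 2 lower on HFD in WT liver and 3 were higher in KO liver, 27.3% in each, and of 5 bile duct and other epithelial genes 0 passed in WT and 2 were higher in KO liver (40%). Between genotypes on HFD 2 of the 11 and 1 of the 5 were higher in KO liver. Of 12 liver endothelial genes 2 were called for diet in WT, 0 in KO liver, and 1 and 0 for genotype on HFD and ND. The lists for epididymis, pancreas, kidney, skeletal muscle and blood had 2 to 4 genes tested in liver, of which 0 or 1 passed in each comparison.

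The other genes of glucose metabolism were followed through lists that leave out the 8 genes; 11 of the 235 genes on the 9 lists stand on more than 1. Of 32 other enzymes and carriers of gluconeogenesis and glycolysis tested in liver, WT mice had 8 lower and 1 higher on HFD, and KO mice 7 lower and 2 higher. The median log2 differences were -0.26 and -0.15. The calls were 28.1% of the list in each genotype, beside 12.5% of all genes in WT and 16.4% in KO liver. Slc37a4, the transporter that brings glucose-6-phosphate to G6pc, was lower in both (log2 -0.99 and -0.68, adjusted p = 0.000807 and 0.00484), as was the aspartate aminotransferase Got1 (-2.48 and -1.77, adjusted p = 0.00393 and 0.0167). Between genotypes 5 were higher and 0 lower in KO liver on HFD, and 5 higher and 2 lower on ND, with the monocarboxylate transporter Slc16a7 higher on both (0.83 and 0.84, adjusted p = 0.000526 and 0.000728). These calls were 15.6% of the list on HFD and 21.9% on ND, beside 6.67% and 4.74% of all genes.

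**Figure D4:**
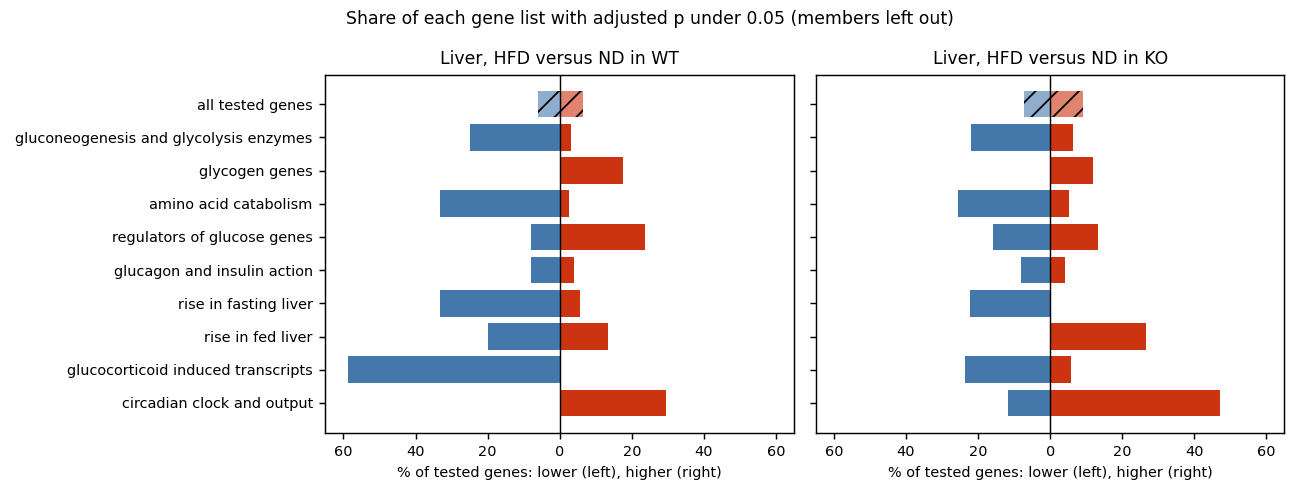
Share in percent of the tested genes of each list that were lower (left, blue) or higher (right, red) on HFD than on ND in WT and KO liver at an adjusted p under 0.05; hatched bars are all genes tested and the 8 measured genes are left out. In WT liver 33.3% of the amino acid list and 58.8% of the glucocorticoid list lie to the left.

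Amino acid catabolism, which supplies carbon for glucose, had 13 of 39 genes lower and 1 higher on HFD in WT liver, and 10 lower and 2 higher in KO liver (median log2 -0.40 and -0.31). The calls were 35.9% and 30.8% of the list, beside 12.5% of all genes in WT and 16.4% in KO liver. The urea cycle enzyme Asl was lower in both (-1.61 and -1.65, adjusted p = 0.000146 and 6.63e-05), and so was Arg1, which makes urea from arginine (-0.78 and -0.86, adjusted p = 0.00210 and 0.000763). In KO liver 7 of the 39 were lower than in WT and 1 higher on HFD, and 5 lower and 0 higher on ND, with Asl lower on both (-0.94 and -0.89, adjusted p = 0.00514 and 0.00912). These genotype calls were 20.5% of the list on HFD and 12.8% on ND, beside 6.67% and 4.74% of all genes. Of 17 glycogen genes 3 were higher on HFD in WT and 2 in KO liver, and 0 were lower. These were 17.6% and 11.8%, beside 12.5% and 16.4% of all genes called. The branching enzyme Gbe1 was higher in KO than in WT liver on both diets (1.24 and 1.07, adjusted p = 0.0107 and 0.0276).

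Of 38 transcriptional regulators of hepatic glucose genes, the fatty diet was marked by 9 higher and 3 lower in WT liver and by 5 higher and 6 lower in KO liver. The calls were 31.6% and 28.9% of the list, beside 12.5% of all genes in WT and 16.4% in KO liver. Srebf1, which drives lipogenic genes under insulin, was higher on HFD in both (1.93 and 2.52, adjusted p = 0.000279 and 2.97e-05). Mlxipl, which encodes the glucose-sensing factor ChREBP that acts on Pklr, was higher on HFD in WT liver (1.39, adjusted p = 0.000311) and higher in KO than in WT liver on ND (1.02, adjusted p = 0.00516), and its KO diet difference was -0.074 (adjusted p = 0.795); the interaction passed (-1.47 ± 0.23, adjusted p = 0.0117). The glucagon and insulin action list had 3 of 25 genes called in each diet comparison. That was 12%, beside 12.5% of all genes in WT and 16.4% in KO liver. Among them Igfbp1, which insulin represses, was lower on HFD in WT liver (-1.84, adjusted p = 0.0282).

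Of 18 transcripts that rise in the fasting liver, 6 were lower and 1 higher on HFD in WT, and 4 lower and 0 higher in KO liver. Of 15 that rise in the fed liver, 2 were higher and 3 lower in WT and 4 higher and 0 lower in KO liver. The diet calls were 38.9% of the fasting list in WT and 22.2% in KO liver, and 33.3% and 26.7% of the fed list. Of all genes 12.5% were called in WT and 16.4% in KO liver. In KO against WT liver on HFD 5 of the 15 fed transcripts were higher and 0 lower (33.3%, beside 6.67% of all genes). Among them were the malic enzyme Me1 (3.03, adjusted p = 2.05e-05) and the desaturase Scd1 (3.47, adjusted p = 0.000200). Of the 18 fasting transcripts 4 were lower and 1 higher in that comparison (27.8%). On ND each of these lists had 1 higher and 1 lower in KO liver. Of 17 transcripts induced by glucocorticoids, 10 were lower and 0 higher on HFD in WT liver (median log2 -1.51), and 4 were lower and 1 higher in KO liver (-0.60). Ddit4, which restrains growth signalling, had a WT difference of -4.46 (adjusted p = 0.000259). The diet calls were 58.8% of this list in WT and 29.4% in KO liver. In KO against WT liver 4 of the 17 were lower and 0 higher on ND (23.5%, beside 4.74% of all genes). On HFD 2 were higher and 1 lower (17.6%, beside 6.67%). In the interaction 3 were higher and 1 lower (23.5%, beside 0.998%).

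Clock genes also differed between diets. Among 17 genes of the circadian clock and its output, WT liver had 5 higher and 0 lower on HFD and KO liver 8 higher and 2 lower. The calls were 29.4% and 58.8% of the list, beside 12.5% of all genes in WT and 16.4% in KO liver. Dbp, a clock output factor, read 97.4 to 620 units in WT and 98.6 to 172 in KO mice on ND, and 1525 to 2151 and 1489 to 2527 on HFD (log2 3.25 and 3.99, adjusted p = 0.00193 and 0.000378). Per3 was higher by 2.07 and 2.12 (adjusted p = 0.00845 and 0.00565). The part of the hour of sampling in the diet differences of the 8 genes was not tested.

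Over the 12 liver arrays, the profiles nearest to those of the genes called in liver were found by the root mean square difference of mean-centred log2 signals, as a description. Pck1 lay nearest to Lurap1l (0.19), Arg1 (0.21) and Sdr42e1 (0.23), where its own SD was 0.56. Tat lay nearest to Rbm45 (0.40), Gldc (0.45) and Tm6sf2 (0.46), with an SD of 1.15, and Gldc, like Tat, encodes an enzyme of amino acid breakdown. Slc2a2 lay nearest to Mrps27 (0.18), Bdh2 (0.21) and Slc39a10 (0.23), Pklr to Tnfrsf11b (0.22), Aox1 (0.30) and Rmdn3 (0.31), Ppargc1a to Prmt1 (0.30), Mpst (0.30) and Slc35g1 (0.32), and G6pc to Sh3glb2 (0.24), Vmp1 (0.25) and Ada (0.27).

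In adipose tissue Pck1 has another role, since it supplies glycerol for the storage of fat. Its chosen probe set read 793, 718 and 1713 units in WT mice on ND and 2164, 3128 and 4014 on HFD. KO mice read 1990, 2039 and 2023 on ND and 603, 930 and 498 on HFD, so that the diets lay in opposite orders in the genotypes. Pck1 rose on HFD in WT adipose tissue by 3.03-fold (log2 1.60 ± 0.33, adjusted p = 0.00189) and fell in KO tissue by 3.09-fold (log2 -1.63, adjusted p = 0.00207). The interaction was -3.23 ± 0.47 (adjusted p = 0.00401), and it was called in all 18 alternatives.

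On HFD, KO adipose tissue held 4.60-fold less Pck1 than WT tissue (log2 -2.20 ± 0.33, adjusted p = 0.00142), with no overlap. On ND the KO arrays lay above the WT arrays without a call (1.02, adjusted p = 0.210). The second probe set gave the same genotype difference on HFD (-2.24, adjusted p = 0.000695) and the same interaction (-3.37, adjusted p = 0.00248), but in WT tissue its diet difference was -0.092 (adjusted p = 0.797). Averaged over all 3 probe sets, the WT diet difference was 0.14 (adjusted p = 0.714), so the rise in WT tissue rested on 1 probe set.

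**Figure D5:**
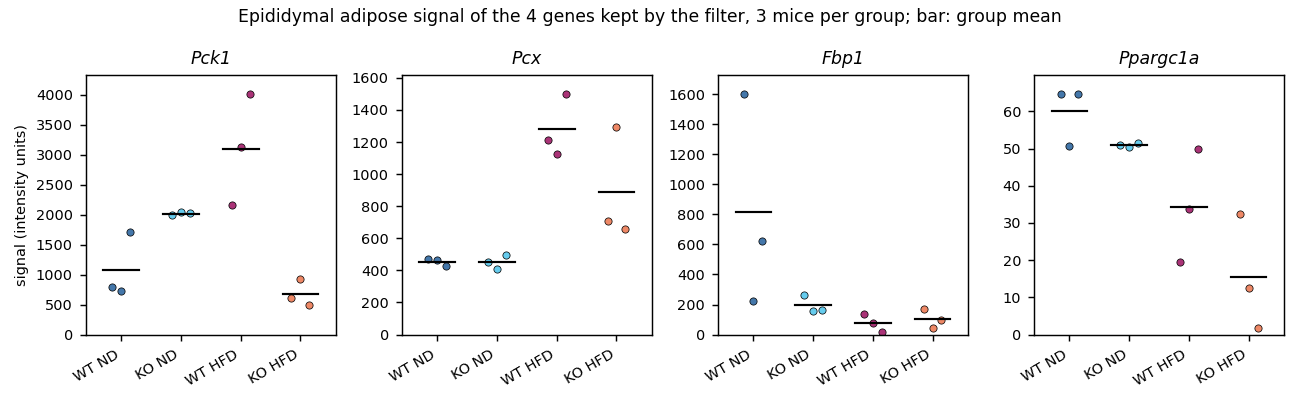
Signal in intensity units in epididymal adipose tissue of the 4 genes that passed the filter there, with 1 point per mouse, 3 mice per group, and a bar at the group mean. The axes start at 0 and differ between genes. For Pck1 the WT mice are higher on HFD (2164 to 4014 units) than on ND, and the KO mice are lower (498 to 930).

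Pcx, which in fat cells feeds the synthesis of fatty acids, read 469, 463 and 426 units in WT mice on ND and 1215, 1123 and 1500 on HFD, and 451, 411 and 499 in KO mice on ND and 705, 1296 and 660 on HFD. It rose on HFD in both genotypes (log2 1.49 ± 0.22 and 0.90, adjusted p = 0.000198 and 0.00581). KO and WT differed on HFD by -0.59 without a call (adjusted p = 0.0774), and without mouse 428, the KO mouse at 1296 units, the difference was -0.90 and passed (adjusted p = 0.00229).

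Fbp1 read 1601, 225 and 619 units in WT adipose tissue on ND and 135, 75.0 and 18.5 on HFD, and the call was a fall of 3.41 ± 0.80 on the log2 scale (adjusted p = 0.00387). The KO difference of -1.08 did not pass (adjusted p = 0.288). Ppargc1a read 64.7, 50.6 and 64.7 units in WT mice on ND and 19.5, 33.8 and 49.8 on HFD, without a call (-0.90, adjusted p = 0.361), and 51.0, 50.5 and 51.4 in KO mice on ND and 32.4, 12.6 and 1.73 on HFD. The KO fall of 2.52 on the log2 scale passed (adjusted p = 0.0228) and was lost in 4 of 14 alternatives, each left-out array of KO mice on ND among them (adjusted p = 0.0549 to 0.0566). Between genotypes on HFD Ppargc1a differed by -1.85 without a call (adjusted p = 0.122), and without mouse 427 by -2.78 with one (adjusted p = 0.0132).

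In adipose tissue 3 of the 4 genes were called between diets in WT mice (55% of 11384 genes tested there, 27.7% higher and 27.3% lower) and 3 in KO mice (48.3%, with 21.9% higher and 26.4% lower), 1 between genotypes on HFD (22.2%) and 1 in the interaction (10.7%). Between genotypes on ND limma called 0 of 4 (0.281% of all genes), and 1 had an unadjusted p under 0.05. Groups did not overlap for 60.9% of all genes between diets in WT mice, 61.7% in KO mice, 37.7% between genotypes on HFD and 23.1% on ND. G6pc read 0.90 to 33.2 units, Tat 1.59 to 44.1, Pklr 4.49 to 17.3 and Slc2a2 8.33 to 31.3 over the 12 adipose arrays, and their means lay below the adipose filter.

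Markers of other cell types moved with some of these comparisons. All 13 epididymis and testis markers tested were lower on HFD in WT and 10 in KO adipose tissue, with sums of 55915 to 73894 units in WT and 44443 to 54898 in KO mice on ND against 179 to 311 and 35.3 to 6377 on HFD; mouse 427 held the highest HFD value. Hepatocyte markers were lower on HFD for 16 of 17 in WT adipose tissue (median log2 -2.19), where 27.3% of all genes were. In KO tissue 3 of 17 were lower (median log2 -1.18), or 17.6%, under the 26.4% of all genes. Periportal markers were lower for 7 and 4 and higher for 2 and 2 of 10 in WT and KO tissue, beside the fall of Fbp1 called in WT tissue. All 9 epithelial markers were lower on HFD in both genotypes. Of 10 genes of the liver endothelial list 9 were higher on HFD in WT and 5 in KO tissue, 7 were lower and 1 higher in KO than in WT tissue on HFD, and 7 were lower in the interaction, beside the lower Pck1 (sums of 2541 to 2788 against 4049 to 4394 units on HFD). Of 13 fat cell markers 10 were higher on HFD in WT tissue, and 7 were lower in KO than in WT tissue on HFD (sums of 26851 to 39666 against 41949 to 46320 units). In the interaction 6 of the 13 were lower and 0 higher (46.2%, beside 10.7% of all genes called). Macrophage markers in the interaction were higher for 5 and lower for 0 (41.7%). Of 12 macrophage markers 9 were higher in KO than in WT tissue on HFD (18912 to 30377 against 8395 to 13615 units). The Actb 3' to 5' log2 ratio was 0.62 to 0.80 on those KO arrays and 1.13 to 1.68 on the WT arrays. Without the arrays of mice 427 and 547 the Pck1 genotype difference on HFD was -2.11 (adjusted p = 0.00775), and the part of the cell types and of the ratio in the Pck1, Fbp1 and Ppargc1a differences was not tested.

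Set against adipose tissue of the same WT mice on HFD, liver held more Fbp1 (log2 7.66 ± 0.59, adjusted p = 4.03e-10), Pcx (0.85, adjusted p = 0.000334) and Pck1 (0.72 ± 0.28, adjusted p = 0.0303), 3 of 4 genes where 65% of 10049 were called. The Pck1 ranges overlapped, at 3508 to 5915 units in liver and 2164 to 4014 in adipose tissue, and its call was lost without any 1 of the 2 arrays of mouse 546, adipose 547 or liver 560 (adjusted p = 0.0509 to 0.173). Ppargc1a differed by 1.36 (adjusted p = 0.0581), and with mouse as a block it passed (adjusted p = 0.0493). Means over all arrays of the tissue were 2665 units in liver and 15.8 in adipose tissue for G6pc, 4164 and 18.2 for Tat, 2941 and 19.9 for Slc2a2 and 197 and 10.9 for Pklr.

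The genotype difference on HFD was itself different between the tissues for Pck1, with -0.52 in liver, without a call, and -2.20 in adipose tissue. Liver exceeded adipose tissue in this difference by 1.68 ± 0.40 (adjusted p = 0.00854), the 1 call among 4 genes against 12.7% of all genes. Averaged over the probe sets of each gene it was 0.55 and lost (adjusted p = 0.360). That average includes the remaining Pck1 set, below the filter, which read 3.09 to 3.41 units in KO and 0.20 to 0.35 in WT adipose tissue on HFD. The second Pck1 set gave genotype differences on HFD of -0.36 in liver, without a call, and -2.24 in adipose tissue. The diet difference in WT mice was lower in liver than in adipose tissue for Pck1 (-2.43 ± 0.40, adjusted p = 8.19e-05) and Pcx (-1.48, adjusted p = 0.000131) and higher for Fbp1 (3.41 ± 0.84, adjusted p = 0.00318), 3 of 4 genes against 38.2% of all genes.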

How the data were processed

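RNA from liver and epididymal adipose tissue of 12 mice was read on 24 Affymetrix arrays. The values deposited are linear signals in intensity units, made with MAS5 per the submitters' processing notes, with no version given in the sources used here. Their 2% trimmed mean was 100.0 on every array, from the values, and no scaling was added. Of 45101 probe sets 64 were controls, 34945 others had 1 gene symbol, 932 several and 9160 none. Per tissue, signals under the 10th percentile (1.10 in liver, 1.08 in adipose tissue) were set to that value before taking log2. Genes were kept for testing at or above the mean log2 signal of the middle probe set (12.9 and 19.3 units), giving 11121 genes in liver, 11384 in adipose tissue and 10049 in both.

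Group means were fitted in limma 3.58.1 (R 4.3.3) with a variance trend and 8 residual degrees of freedom per tissue, all 4 groups of a tissue together, and jointly for comparisons between tissues. P-values were adjusted by the Benjamini-Hochberg method over all genes tested. Detection calls were not used. The number of arrays limits the precision.

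The genes and lists were chosen with earlier results of these data known. Genes named are the 9 genes, up to 3 genes of smallest p per list and comparison, the 3 nearest liver profiles, markers and other probe sets. Outside that rule, chosen after their values were seen, Got1 is given in KO liver, Fabp4 and Pparg complete a count of 5, and uncalled values of named genes stand beside called ones. The labels give the same animal for both tissues. Over genes, the deviations of a mouse's liver array and adipose array correlated between 0.031 and 0.13, above 0.1 in 3 of 12 mice. The fits within each tissue were also run on simulated data, with noise drawn independently for each gene and array. That run checked the code and is no support for any result.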

Additional observations from a re-analysis of the deposited data

Results flagged for a closer look

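Pck1 was singled out because its diet effect differed between the genotypes in adipose tissue, by a tested interaction of -3.23 on the log2 scale. Its genotype difference on HFD also differed between the tissues, by 1.68. The diet difference in WT mice differed between liver and adipose tissue for 3 genes, by -2.43 for Pck1, 3.41 for Fbp1 and -1.48 for Pcx. The ND adipose arrays, which carried epididymal transcripts, enter all of these except the genotype difference on HFD. That difference includes the KO array of mouse 427, with an epididymis and testis sum of 6377 units. The WT arrays on HFD had sums of 179 to 311. The part of those transcripts was not tested.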

How the results depend on the processing

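Over 72 results for single genes, 992 values under other processing held 903 with the same direction and call, 42 that lost a call, 15 that gained one and 32 that turned direction. Other probe sets and leaving out mice 427 and 547 together were added after seeing the data. The cause of each change was not tested, except that fewer samples or other genes tested can move an adjusted p.

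For genotype on ND in liver, 2 of the 8 genes were called, against 1 with no filter, 0 with no variance trend and 1 with only the compared groups, and 5 for diet in WT liver against 3 with no variance trend. With no filter, 5 genes were called for diet in adipose tissue of either genotype against 3, 7 between tissues against 3, and 6 for the tissue difference of the diet effect against 3, since 8 genes were then tested. The call of the tissue difference of the genotype effect went from 1 to 0 with the mean of probe sets. For genotype on HFD in adipose tissue it went from 1 to 2 without mice 427 and 547. Leaving out 1 array gave 0 to 2 calls for genotype on HFD and 0 to 2 on ND in liver, 3 to 5 for diet in WT liver, 0 to 1 for the liver interaction, and 1 to 2 each for genotype on HFD and the interaction in adipose tissue and for the tissue difference of the genotype effect. Over all genes it gave 280 to 685 calls for genotype on HFD in liver (742 in all), 195 to 570 on ND (527), 676 to 1388 for diet in WT (1394), 1126 to 1303 in KO (1825), 36 to 121 for the interaction (111), and in adipose tissue 1539 to 2615 for genotype on HFD (2532), 6 to 371 on ND (32) and 607 to 1425 for the interaction (1215). Other settings gave as few as 628 for diet in WT liver, 471 and 271 for genotype on HFD and ND, and 31 for the interaction.

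Among probe sets above the filter, directions turned for differences without a call, except those between diets in WT adipose tissue, where Pck1 was -0.092 by its second set and Pcx -0.11 by the control set MB. Quantile normalization gave Fbp1 0.023 for genotype on HFD, 0.078 on ND, 0.093 for diet in WT and 0.038 in KO liver, G6pc 0.0084 for genotype on ND, and Pcx -0.031 for diet in WT liver and -0.031 for genotype on ND in adipose tissue. The mean of probe sets gave Ppargc1a -0.10 for genotype on ND in liver and Pck1 0.047 for the liver interaction. Other probe sets gave Pck1 0.20 and Ppargc1a -0.37, -0.31 and -0.21 for genotype on ND in liver, Pklr -0.051 for diet in WT liver, and Ppargc1a 0.19 and 0.21 for the liver interaction. Control sets gave Pcx -0.058 (3') and -1.66 (MB) for diet in WT liver, 0.70 (5') and 0.49 (MA) in KO liver, 0.27 (5') and 0.0016 (MB) for the liver interaction, -0.011 (3'), -0.29 (5'), -0.59 (MA) and -0.30 (MB) for genotype on ND in adipose tissue, and 0.15 (5'), 0.57 (MA) and 0.13 (MB) for its interaction. Below the filter, where signals lie near the floor, the remaining Pck1 set turned called differences without passing itself, at 0.30 and 1.24 for diet in WT and KO liver, and 1.58 for genotype on HFD, 0.49 for diet in KO, -1.09 for diet in WT and 1.58 for the interaction in adipose tissue. It also gave 0.94 for the liver interaction and -0.0026 for genotype on ND in adipose tissue, and the remaining Pklr set gave -0.84 for the liver interaction. Leaving out 1 array gave, for genotype on HFD in liver, Pcx -0.033 to 0.12, Ppargc1a -0.20 to 0.078 and Tat -0.25 to 0.44; for genotype on ND, G6pc -0.25 to 0.016 and Ppargc1a -0.073 to 0.38; for diet in WT, Fbp1 -0.072 to 0.060 and Pcx -0.062 to 0.088; for the interaction, Pklr -0.0066 to 0.52 and Ppargc1a -0.42 to 0.029. In adipose tissue it gave Fbp1 -0.17 to 1.26 for genotype on HFD and Pcx -0.070 to 0.069 on ND.

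With mouse as a replicate block (the pairing of both tissues, consensus correlation 0.064), Ppargc1a gained a call between tissues (adjusted p = 0.0493), so 4 genes were called there against 3, and no other call among the 4 genes changed. For the tissue difference of the genotype effect 1443 genes were called with the block against 1275.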
